A study of Gnathonemus petersii with 18 samples.

Results

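The spinal cord of the elephantnose fish, Gnathonemus petersii, was compared with its cerebellum by RNA sequencing, across every gene of the count table. The comparison rests on 12 of the 18 libraries of the series, chosen by their tissue label: 6 from spinal cord and 6 from cerebellum, which the count columns call brain. The ganglion libraries of the series were not used. Per the labels the tissues were taken from 6 individual fish, and no age, sex, strain or treatment is given for any of them, so the groups differ by tissue alone as far as the labels go. By its title the series concerns the early history of touch in vertebrates.

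The elephantnose fish is a mormyrid, a weakly electric fish of African fresh waters with a cerebellum that is very large for a fish. The cerebellum is built mainly from granule cells, small glutamatergic neurons whose axons run to Purkinje cells, and Purkinje cells release GABA onto the output neurons. The spinal cord holds motor neurons that release acetylcholine, local interneurons that release glutamate, glycine or GABA, sensory relay neurons, long myelinated tracts and a ciliated central canal. Hox genes, which encode homeodomain factors that record position along the body axis, are active in the spinal cord and hindbrain of vertebrates, while Engrailed and Zic factors mark the territory that gives rise to the cerebellum.

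Total gene counts ran from 10346375 to 13379441 per spinal cord library and from 10953416 to 17587837 per cerebellum library. Each spinal cord library detected 23381 to 23745 genes with 1 count or more, and each cerebellum library 22727 to 23422. Libraries of a tissue resembled each other far more than libraries across tissues: Spearman's rho across genes was 0.944 to 0.972 within spinal cord and 0.967 to 0.983 within cerebellum, and averaged 0.760 between tissues. The first principal component, which separated the tissues, held 79.7% of the variance. Levels below are CPM, counts scaled to a library of 1000000, given as the lowest, the median and the highest of the 6 libraries of a tissue. A log2 fold change is spinal cord over cerebellum, followed by an approximate SE, and a p is adjusted by Benjamini-Hochberg over all genes tested with edgeR's quasi-likelihood test, with the replicate number as a block. Genes past an adjusted p of 0.05 that differ 2-fold or more are called higher or lower. In bulk tissue, fewer cells of a type and less RNA per cell cannot be told apart.

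Marker genes of each tissue were higher under its own label. In spinal cord, the choline acetyltransferase gene chat, the vesicular acetylcholine transporter gene slc18a3, the motor neuron factor gene mnx1, the glycine transporter gene slc6a5 and all 9 tested Hox genes of paralogue groups 6 to 13 were higher. Of those 9 Hox genes, 7 had no count in cerebellum, so once tested they could not be called lower. In cerebellum, fat2, gabra6, pax6, en2 and ptf1a were higher. For each of these markers the lowest library of its own tissue stood above the highest library of the other.

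Of 28031 genes in the table, 19839 had enough counts to be tested. Spinal cord was higher for 5488 genes, which is 27.7% of those tested, and lower for 3548, which is 17.9%, so 45.5% were called in either direction. A further 6508 genes passed the adjusted p with less than a 2-fold difference. The lower and upper quartiles of all log2 fold changes were -0.74 and 1.19, with a median of -0.0013. Among the called genes, 8724 of 9036, or 96.5%, differed in the called direction in all 6 same-number pairs. Spinal cord and cerebellum libraries did not overlap at all for 10576 tested genes, 53.3%. Differences of at least 64-fold were called for 271 genes, 219 of them higher in spinal cord and 52 lower. Counts were present in all 6 spinal cord libraries and absent from all 6 cerebellum libraries for 120 genes, and the reverse held for 37.

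The balance of higher and lower calls differed between the fit of counts and the fits of TPM, which also changed the test and the filter. With the counts scaled by TMM, 60.7% of the calls were higher in spinal cord. On the TPM scale, with limma, the share was 50.3% with a pseudocount of 1 and 50.8% with a pseudocount of 0.1, and the median log2 difference of all genes was -0.19 and -0.22. The 50 most abundant genes of a library took 21.3% to 24.5% of the counts in spinal cord, against 10.9% to 11.9% in cerebellum. A single gene known only by its locus identifier, LOC111852252, took 6.26% to 9.51% of the counts in spinal cord libraries and 0.341% to 0.571% in cerebellum libraries. It is named here after its values were seen. The part of these abundant genes in the balance of calls was not tested.

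**Figure D1:**
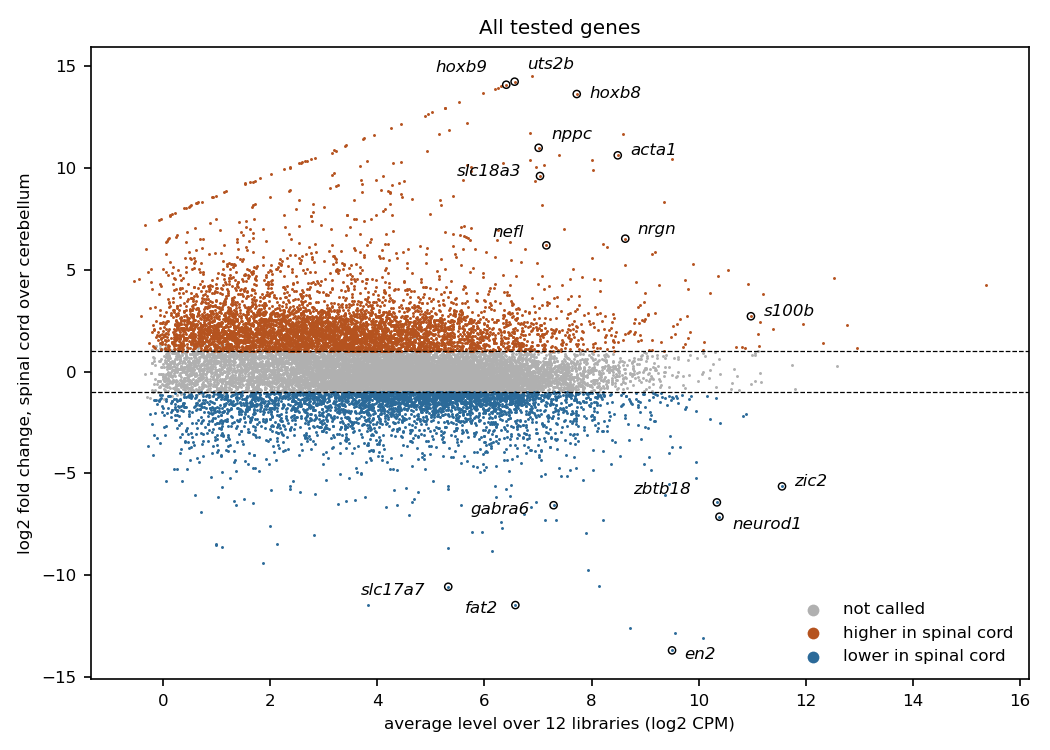
Average level of each tested gene (x axis, average log2 CPM over the 12 libraries) against its log2 fold change, spinal cord over cerebellum (y axis). Genes called higher and lower in spinal cord are coloured, and the labelled genes are a selection of those in the text. Points on the sloping upper edge are genes with no count in cerebellum. The 219 genes at least 64-fold higher outnumber the 52 at least 64-fold lower.

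Most of the genes have no symbol. Genes with a symbol numbered 10373, of which 9380 were tested, and genes with a locus identifier alone numbered 17658, of which 10459 were tested. Of the tested genes with a symbol, 1977 were higher in spinal cord and 1582 lower, 21.1% and 16.9%, with a median log2 fold change of -0.16. Of the tested genes with a locus identifier, 3511 were higher and 1966 lower, 33.6% and 18.8%, with a median of 0.20. The group without symbols was therefore called higher more often, and it took 56.8% of all counts in spinal cord, against 49.2% in cerebellum. These shares include LOC111852252, which alone took 6.26% to 9.51% of the counts of spinal cord libraries and 0.341% to 0.571% of cerebellum libraries. The shares of the groups without that single gene were not computed. The identifier with the largest rise among abundant genes, LOC111840543, had 133, 196 and 455 CPM in spinal cord, against 0, 0 and 0 CPM in cerebellum, at least 6791-fold higher (adjusted p = 2.43e-11). At the other end, LOC111856484 had 0, 0.164 and 0.730 CPM in spinal cord, against 1726, 2105 and 2668 CPM in cerebellum (log2 fold change -13.07 ± 0.25, adjusted p = 2.33e-13). The next, LOC111858555, had 0, 0.131 and 0.488 CPM in spinal cord, against 1231, 1502 and 1768 CPM in cerebellum (log2 fold change -12.81 ± 0.27, adjusted p = 1.56e-12). The lists below hold only genes with a symbol, so relatives of their members that lack one are not counted in them. Their counts are to be read beside the 21.1% higher and 16.9% lower of tested genes with a symbol.

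The 2 Hox lists had the largest medians of the 46 gene lists. All 10 tested genes of paralogue groups 1 to 5 and all 9 of groups 6 to 13 were higher in spinal cord. Among tested genes with a symbol, 21.1% were. With no count in cerebellum, 7 of the 10 and 7 of the 9 had enough counts to be tested only through spinal cord. Such genes could not be called lower, so the full tally was largely fixed by the count filter. The group 9 genes hoxb9 and hoxa9, the group 6 gene hoxb6 and the group 3 genes hoxd3 and hoxb3 had no read in any cerebellum library. Their levels in spinal cord were 139, 165 and 205 CPM for hoxb9, at least 4788-fold above cerebellum, and 149, 157 and 183 CPM for hoxd3, at least 4485-fold above it (adjusted p = 3.43e-11 and 3.71e-11). These bounds set 3 counts over the 6 cerebellum libraries against the spinal cord level. Reads of hoxb8 numbered 29447 in the spinal cord libraries together and 2 in the cerebellum libraries together. The ratio for hoxb8 was 17826 (4934 to 147205) with its 95% counting interval.

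Per unit of length the Hox genes were not equal within the spinal cord. By the deposited TPM, hoxb8 stood at 285 ± 35.6, hoxb9 at 213 ± 29.2 and hoxb6 at 210.2 ± 32.98, while the more anterior genes hoxd3 and hoxb3 stood at 49.9 ± 3.38 and 32.4 ± 4.01 (mean ± SD, n = 6). The order did not follow paralogue group throughout: the group 5 gene hoxb5 stood at 99.7 ± 17.2, above the group 9 gene hoxa9 at 80.1 ± 8.48 and the group 7 gene hoxa7 at 71.1 ± 13.1, with ranges over libraries that overlapped. Another 3 genes of groups 6 to 13 had too few counts to test: hoxc11 with 55 counts, hoxb13 with 4 and hoxd12 with 0 over the 6 spinal cord libraries, and none of them had a count in cerebellum. The median log2 fold change was 10.15 for the anterior list and 12.97 for the central and posterior list, or 9.13 and 11.09 with genes absent from cerebellum set at their bound.

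**Figure D2:**
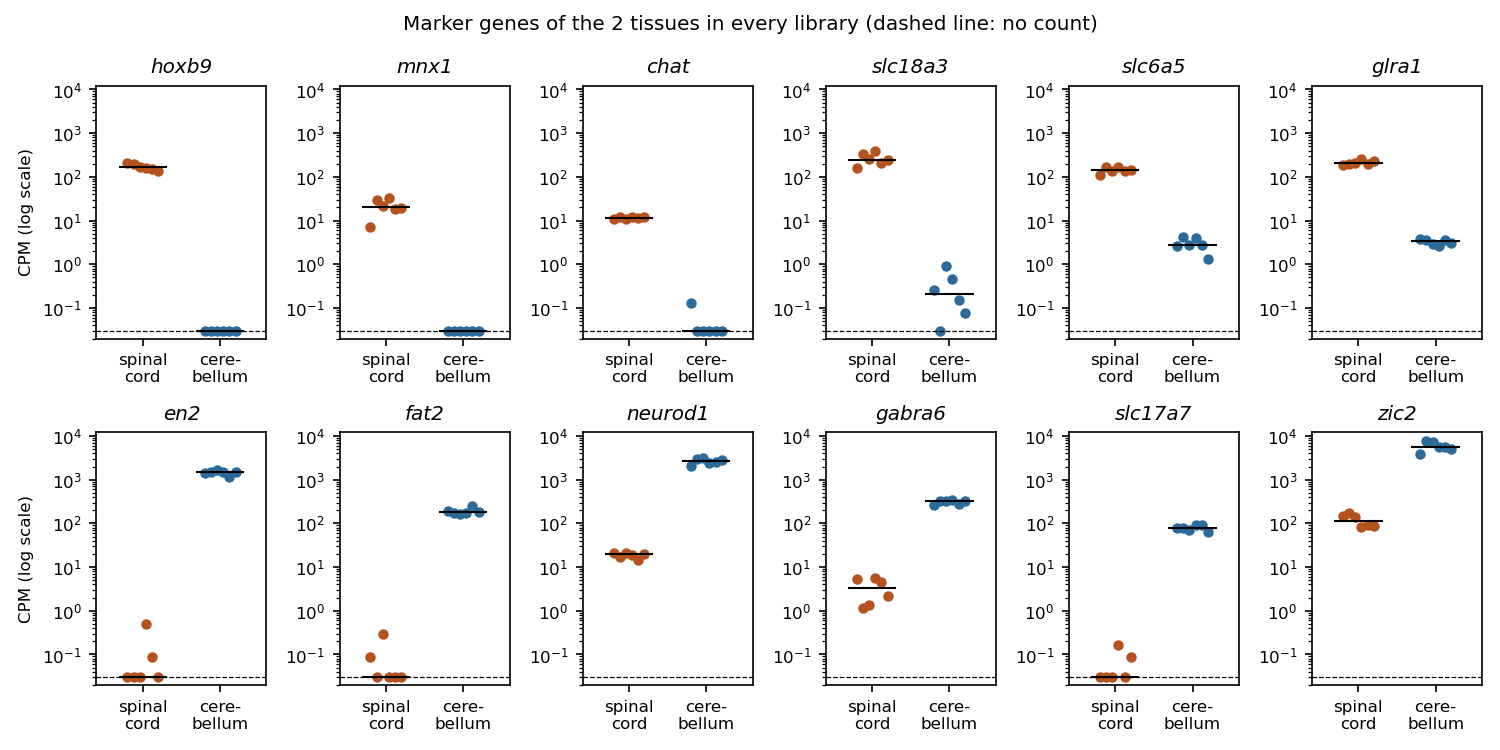
CPM of 12 genes in every library, with spinal cord libraries on the left of each panel and cerebellum libraries on the right (log axis; a library with no count is drawn on the dashed line at the bottom). Points are libraries and horizontal bars are medians of 6 libraries. No panel shows an overlap between the tissues.

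The cerebellum was marked by patterning factors of its own. Of 14 tested factors of the midbrain-hindbrain region and the rhombic lip, the embryonic source of granule cells, 9 were lower in spinal cord and 2 were higher. The engrailed gene en2 acts in cerebellum development in mouse. It had 0, 0 and 0.487 CPM in spinal cord, against 1174, 1474 and 1687 CPM in cerebellum (log2 fold change -13.69 ± 0.31, adjusted p = 1.22e-11). Zinc-finger factors of granule cell precursors followed. Levels of zic2 were 84.3, 116 and 176 CPM in spinal cord, against 3968, 5608 and 7779 CPM in cerebellum (log2 fold change -5.63 ± 0.17, adjusted p = 3.57e-11). Those of zic5 were 19.4, 31.7 and 41.8 CPM in spinal cord, against 1016, 1352 and 1718 CPM in cerebellum (log2 fold change -5.50 ± 0.15). The gene ptf1a, which sets cerebellar GABAergic neurons apart from glutamatergic ones in mouse, was at 0.243, 0.369 and 0.684 CPM in spinal cord, against 33.7, 36.8 and 56.7 CPM in cerebellum (log2 fold change -6.55 ± 0.20). Both members that were higher in spinal cord, gbx1 and barhl2, also serve in spinal interneuron development in mouse, and gbx1 had 29.9, 35.3 and 44.9 CPM in spinal cord, against 0.446, 1.90 and 2.39 CPM in cerebellum (log2 fold change 4.38 ± 0.22). The level of meis1, a cofactor of Hox proteins, overlapped between tissues at 124, 171 and 189.7 CPM in spinal cord, against 121, 146 and 178 CPM in cerebellum (adjusted p = 0.0596).

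Transcription factors that divide spinal interneurons into classes gave a mixed picture. Of 30 tested, 17 were higher in spinal cord, 7 lower and 6 not called, and 12 more had too few counts to test. Among tested genes with a symbol, 21.1% were higher and 16.9% lower. The progenitor factor gene dbx2 had 15.6, 21.4 and 28.2 CPM in spinal cord and no count in cerebellum, at least 600.1-fold higher. Dmrt3, which marks commissural interneurons tied to locomotion in mouse, gave 720 counts in spinal cord and 1 in cerebellum, and drgx, a factor of dorsal horn and sensory neurons in mouse, gave 2392 and 3. The ventral factor gene nkx6-1 had 21.2, 28.7 and 43.1 CPM in spinal cord, against 0, 0.268 and 0.920 CPM in cerebellum (log2 fold change 6.38 ± 0.37, adjusted p = 1.77e-08). Among the 7 that were lower, pax2 and tfap2b also serve in inhibitory neurons of the mouse cerebellum. Rorb, a nuclear receptor gene that was lower as well, had 9.24, 12.6 and 20.5 CPM in spinal cord, against 135, 178 and 216 CPM in cerebellum (log2 fold change -3.76 ± 0.15). Of the 30, 25 had no overlap in either direction, where 53.3% of all tested genes had none.

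Retinoic acid signalling, which acts on posterior identity in vertebrate embryos, split by component. Of 7 tested genes, 2 were higher in spinal cord and 3 lower, where 21.1% and 16.9% of tested genes with a symbol were. The binding protein gene crabp1 had 87.5, 101 and 156 CPM in spinal cord, against 0, 0.0390 and 0.282 CPM in cerebellum (log2 fold change 10.07 ± 0.23, adjusted p = 2.38e-13). Receptors went the other way: rarb had 0.357, 2.28 and 3.02 CPM in spinal cord, against 7.53, 12.3 and 16.4 CPM in cerebellum (log2 fold change -2.72 ± 0.29). Rarg had 1.86, 2.77 and 3.39 CPM in spinal cord, against 5.59, 10.2 and 13.1 CPM in cerebellum (log2 fold change -1.83 ± 0.22). The synthetic enzyme gene aldh1a2, also a gene of the meninges, was called lower (log2 fold change -1.85 ± 0.59, adjusted p = 0.03) but its levels overlapped, at 6.39, 12.9 and 59.4 CPM in spinal cord, against 56.5, 64.7 and 83.9 CPM in cerebellum. That call ended without number 3, 4, 5 or 6, at adjusted p of 0.0505 to 0.0807, and without numbers 1, 3 and 5, at 0.159.

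Granule cell genes were mostly lower in spinal cord. Of 18 tested genes of granule and unipolar brush cells, 13 were lower in spinal cord and 4 higher, with a median log2 fold change of -3.05. The gene fat2, a giant cadherin of granule cell axons, had 0, 0 and 0.293 CPM in spinal cord, against 167, 181 and 247 CPM in cerebellum (log2 fold change -11.46 ± 0.26, adjusted p = 5.46e-13). Neurod1, a proneural factor that granule cells keep, had 14.8, 19.7 and 21.4 CPM in spinal cord, against 2075, 2659 and 3147 CPM in cerebellum (log2 fold change -7.12 ± 0.13, adjusted p = 4.29e-14). The GABA-A receptor subunit gene gabra6, which in mammals is almost restricted to granule cells, had 1.16, 3.40 and 5.76 CPM in spinal cord, against 258, 324 and 340.2 CPM in cerebellum (log2 fold change -6.56 ± 0.38, adjusted p = 3.27e-06). In each of these 3 genes the highest spinal cord library lay far below the lowest cerebellum library.

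The vesicular glutamate transporter genes were called in opposite directions. Slc17a7, which loads glutamate into vesicles in granule cells, had 3 counts over all spinal cord libraries and 64.6, 77.7 and 93.6 CPM in cerebellum. Its cerebellum level exceeded its spinal cord level 1863 (637 to 9035) times, with the 95% counting interval in parentheses. Its paralogue slc17a6, the transporter of many brainstem and spinal neurons, had 131, 143 and 159 CPM in spinal cord, against 16.7, 21.6 and 25.02 CPM in cerebellum (log2 fold change 2.79 ± 0.10, adjusted p = 1.01e-11). Slc17a6 was 1 of the 4 list members that were higher in spinal cord. Another was nrgn, which encodes neurogranin, a calmodulin-binding protein of dendrites, with 579.6, 791 and 952 CPM in spinal cord, against 4.09, 8.21 and 15.6 CPM in cerebellum (log2 fold change 6.53 ± 0.14, adjusted p = 2.21e-13). The remaining members higher in spinal cord were cbln1 and kcnk9.

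Purkinje cell and eurydendroid cell genes were less uniform. Eurydendroid cells are the output neurons of the fish cerebellum. Of 18 tested genes, 8 were lower in spinal cord, 3 higher and 7 not called, with a median of -0.71, and on log2(TPM + 1) 1 was higher in place of 3. Lower members included the factor genes ptf1a (log2 fold change -6.55 ± 0.20) and rorb (log2 fold change -3.76 ± 0.15), with no overlap between the tissues for either. The zebrin II gene aldoc, a band marker of Purkinje cells that astrocytes also use in mammals, was higher, at 1949, 2709 and 3046 CPM in spinal cord, against 939.7, 1091 and 1371 CPM in cerebellum (log2 fold change 1.18 ± 0.08), though on the TPM scale with either pseudocount its log2 difference of 0.998 and 0.999 stayed just under the threshold. The factor gene lhx1 did not reach the 2-fold threshold, at 134, 149 and 181 CPM in spinal cord, against 249, 309 and 361 CPM in cerebellum (log2 fold change -0.97 ± 0.09).

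Motor neuron and cholinergic genes were mostly higher in spinal cord. Of 18 tested, 15 were higher in spinal cord, 2 lower and 1 not called, with a median log2 fold change of 8.08, or 6.95 with 5 genes absent from cerebellum set at their bound. Those 5 genes could not be called lower. Choline acetyltransferase (chat) had 10.9, 11.7 and 12.3 CPM in spinal cord, against 0, 0 and 0.131 CPM in cerebellum, a ratio of 492 (136 to 4066) with its 95% counting interval. Slc18a3 had 156, 248 and 381 CPM in spinal cord, against 0, 0.206 and 0.915 CPM in cerebellum (log2 fold change 9.61 ± 0.29, adjusted p = 3.19e-10). The homeodomain genes mnx1, isl1, isl2 and lhx4, which specify motor neurons in vertebrates, had no count in cerebellum. In spinal cord, mnx1 reached 7.06, 20.4 and 32.7 CPM and isl1 2.25, 3.54 and 9.17 CPM, at least 614-fold and 123-fold above cerebellum. The 2 members that were lower, aldh1a2 and esrrg, are not confined to motor neurons.

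**Figure D3:**
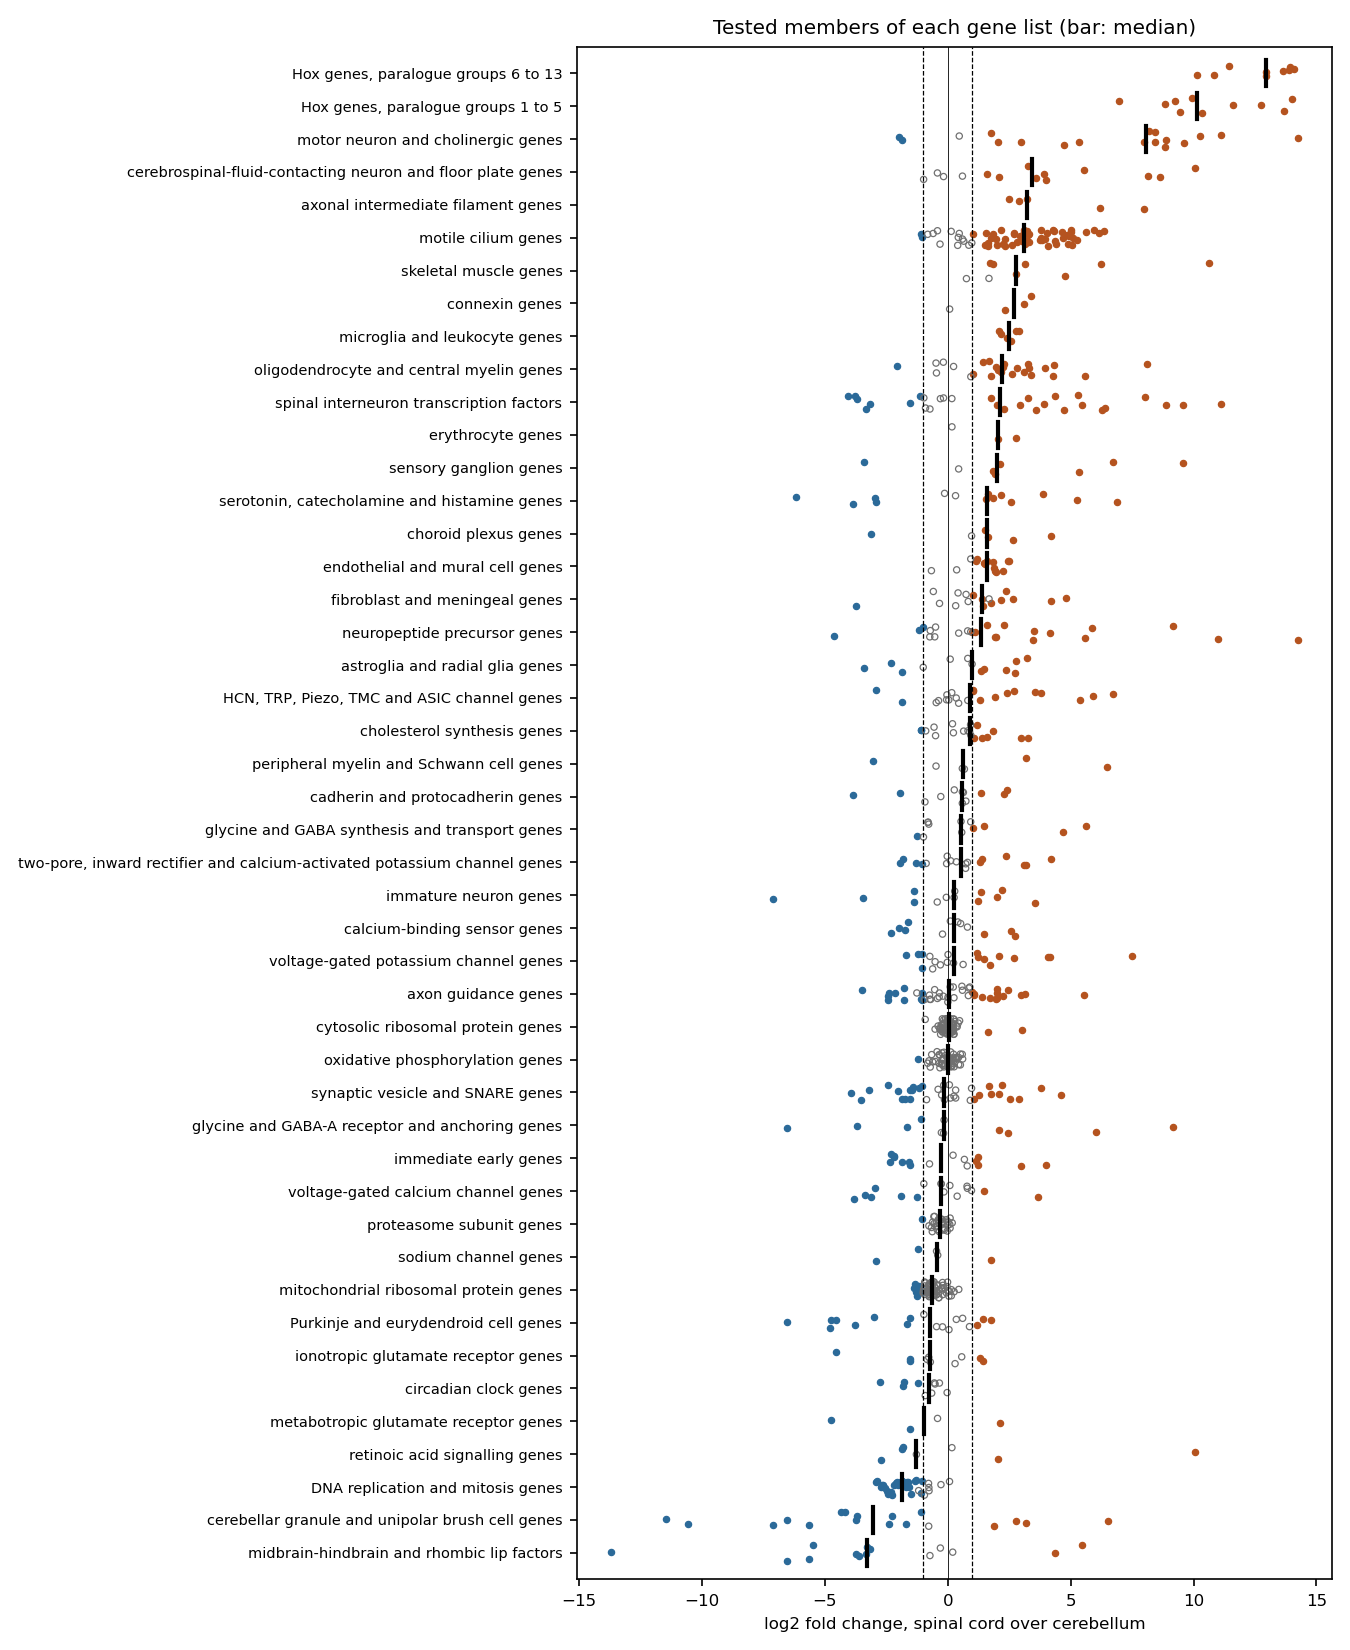
Log2 fold change, spinal cord over cerebellum, of every tested member of each gene list (points) with the list median (bar). Filled points are called genes and open points are genes that were not called; the dashed lines mark a 2-fold difference. The Hox lists lie at the right edge, and the DNA replication and mitosis list, the granule cell list and the midbrain-hindbrain list have medians left of the 2-fold line.

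Peptide and monoamine genes were mostly higher in spinal cord. Of 24 tested neuropeptide precursor genes, 14 were higher, 3 lower and 7 not called. Uts2b, a urotensin peptide precursor, had 130.3, 157 and 301 CPM in spinal cord and no count in cerebellum, at least 5425-fold higher (adjusted p = 3.08e-11). Nppc, the precursor of C-type natriuretic peptide, had 198, 253 and 345 CPM in spinal cord, against 0, 0 and 0.395 CPM in cerebellum (log2 fold change 10.99 ± 0.31, adjusted p = 1.07e-10). Cholecystokinin (cck) had 40.96, 42.5 and 50.8 CPM in spinal cord, against 0.234, 0.539 and 2.53 CPM in cerebellum (log2 fold change 5.88 ± 0.32). the galanin gene gal had 1338 counts in spinal cord and 2 in cerebellum. The substance P precursor tac1, used by sensory and dorsal horn neurons in mammals, had 49.4, 83.98 and 192 CPM in spinal cord, against 21.9, 23.6 and 26.03 CPM in cerebellum (log2 fold change 1.91 ± 0.25). Lower in spinal cord were crhbp, npy and ucn. The secretory chaperone gene scg5 stayed under the 2-fold threshold at 256, 416 and 505 CPM in spinal cord, against 508, 687 and 782 CPM in cerebellum (log2 fold change -0.73 ± 0.08).

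Of 14 tested genes of serotonin, catecholamine and histamine signalling, 8 were higher in spinal cord and 4 lower. Among tested genes with a symbol, 21.1% were higher and 16.9% lower. The enzyme gene tph2, which starts serotonin synthesis in neurons, had 4.20, 7.22 and 18.8 CPM in spinal cord, against 0, 0.124 and 0.594 CPM in cerebellum (log2 fold change 5.28 ± 0.66, adjusted p = 2.30e-05). Aromatic amino acid decarboxylase (ddc) had 378 counts in spinal cord and 3 in cerebellum. The serotonin transporter gene slc6a4 ran opposite to both, with 3 counts in spinal cord and 299 in cerebellum. These are low levels in both tissues, and 10 further list members had too few counts to test. The beta-1 adrenergic receptor gene adrb1 was lower, at 1.46, 1.63 and 2.50 CPM in spinal cord, against 18.7, 23.6 and 39.3 CPM in cerebellum (log2 fold change -3.86 ± 0.22).

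Neurons that touch the cerebrospinal fluid and the floor plate sit at the ventral central canal. Of 14 tested genes of these cells, 10 were higher in spinal cord, none lower and 4 not called. The list member pkd1l2 had 69.98, 80.6 and 112 CPM in spinal cord, against 0, 0.222 and 0.371 CPM in cerebellum (log2 fold change 8.65 ± 0.24, adjusted p = 1.37e-12). The floor plate factor gene foxa2 had 5.66, 10.4 and 13.8 CPM in spinal cord and no count in cerebellum, at least 294-fold higher. The guidance cue gene ntn1, released by the floor plate, had 3.18, 5.12 and 7.59 CPM in spinal cord, against 0, 0.0704 and 0.234 CPM in cerebellum (log2 fold change 5.54 ± 0.56). The gene sspo, whose product forms the Reissner fiber inside the canal, was low in both, at 1.46, 2.28 and 2.68 CPM in spinal cord, against 0.0704, 0.420 and 1.12 CPM in cerebellum (log2 fold change 2.07 ± 0.42). The uncalled members slit1 and slit2 are cues that many neurons make.

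Both glycine transporter genes were higher in spinal cord, while the genes of GABA synthesis were not called. Of 12 tested genes of glycine and GABA synthesis and transport, 4 were higher in spinal cord, 1 lower and 7 not called. The neuronal glycine transporter gene slc6a5 had 109, 140 and 173 CPM in spinal cord, against 1.33, 2.75 and 4.12 CPM in cerebellum (log2 fold change 5.62 ± 0.15, adjusted p = 1.06e-12). The glial one, slc6a9, had 190.2, 262 and 317 CPM in spinal cord, against 7.12, 10.5 and 14.6 CPM in cerebellum (log2 fold change 4.69 ± 0.17). For GABA, the synthetic enzyme genes gad1 and gad2 were not called: gad1 had 118, 153 and 182 CPM in spinal cord, against 199.6, 268 and 319.5 CPM in cerebellum (log2 fold change -0.81 ± 0.07). Gad2 had 81.99, 152 and 191 CPM in spinal cord, against 65.6, 98.1 and 149 CPM in cerebellum (log2 fold change 0.54 ± 0.08). The vesicular transporter gene slc32a1, which loads either transmitter, had 189, 237 and 276 CPM in spinal cord, against 295, 406 and 451 CPM in cerebellum (log2 fold change -0.77 ± 0.08). The GABA uptake transporter gene slc6a11 was higher, at 432, 518 and 654 CPM in spinal cord, against 142, 188 and 237 CPM in cerebellum (log2 fold change 1.47 ± 0.11).

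Receptors for these transmitters split evenly, with 4 of 11 higher in spinal cord, 4 lower and 3 not called. The glycine receptor gene glra1 had 186, 203 and 250.1 CPM in spinal cord, against 2.60, 3.35 and 3.75 CPM in cerebellum (log2 fold change 6.03 ± 0.13, adjusted p = 1.58e-13). Among GABA-A subunits, gabrp had 28.8, 41.3 and 45.6 CPM in spinal cord, against 0, 0 and 0.329 CPM in cerebellum (log2 fold change 9.18 ± 0.38). Gabrg1 had 31.4, 34.3 and 41.4 CPM in spinal cord, against 3.51, 6.02 and 12.3 CPM in cerebellum (log2 fold change 2.46 ± 0.19). Gabrd, an extrasynaptic subunit of granule cells in mammals, had 16.4, 21.7 and 27.2 CPM in spinal cord, against 235, 263 and 339 CPM in cerebellum (log2 fold change -3.69 ± 0.10). Gabrp and gabrg1 were thus higher in spinal cord, and gabrd and gabra6 were lower. The chloride exporter gene slc12a5, on which inhibition by both transmitters depends, had 140.1, 159 and 172 CPM in spinal cord, against 150, 179 and 188 CPM in cerebellum (adjusted p = 0.0881), with overlapping libraries.

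Ionotropic glutamate receptor genes were called higher in spinal cord for 2 of 10 and lower for 3, and metabotropic ones for 1 and 2 of 4. The shares among tested genes with a symbol were 21.1% higher and 16.9% lower. The AMPA receptor gene gria2 had 123, 157 and 184 CPM in spinal cord, against 337, 510.1 and 541 CPM in cerebellum (log2 fold change -1.55 ± 0.08). The NMDA receptor gene grin2a had 13.03, 17.3 and 19.3 CPM in spinal cord, against 35.1, 52.1 and 56.7 CPM in cerebellum (log2 fold change -1.52 ± 0.13). The kainate receptor gene grik5 was higher, at 10.8, 17.3 and 18.8 CPM in spinal cord, against 3.94, 6.77 and 8.43 CPM in cerebellum (log2 fold change 1.30 ± 0.16). On log2(TPM + 1), grik5 was not called (0.81), and both ionotropic calls of higher level were lost. Grm3, a metabotropic receptor of glia and neurons, was also higher, at 199, 233 and 248 CPM in spinal cord, against 32.8, 53.7 and 63.2 CPM in cerebellum (log2 fold change 2.13 ± 0.10).

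Synaptic vesicle and SNARE genes were called in both directions, with 10 of 35 higher in spinal cord, 13 lower and 12 not called. The shares among tested genes with a symbol were 21.1% higher and 16.9% lower. Stxbp6, which encodes a regulator of SNARE assembly, had 267, 434 and 600.3 CPM in spinal cord, against 13.3, 17.4 and 22.02 CPM in cerebellum (log2 fold change 4.62 ± 0.14, adjusted p = 1.17e-11). The vesicle protein gene sv2c had 97.5, 121 and 171 CPM in spinal cord, against 4.83, 9.44 and 14.5 CPM in cerebellum (log2 fold change 3.80 ± 0.21). The complexin gene cplx3 was lower, at 0.776, 2.16 and 2.92 CPM in spinal cord, against 21.2, 31.4 and 39.2 CPM in cerebellum (log2 fold change -3.93 ± 0.24). The synaptotagmin gene syt6 was lower as well, at 9.41, 10.8 and 13.5 CPM in spinal cord, against 116, 124 and 149 CPM in cerebellum (log2 fold change -3.51 ± 0.11). So was the active zone gene rims4, at 12.8, 16.5 and 21.5 CPM in spinal cord, against 129.7, 153 and 184 CPM in cerebellum (log2 fold change -3.21 ± 0.11). Family members thus parted: syt9, syt10 and syt17 were higher in spinal cord while syt3, syt4, syt6, syt7 and syt14 were lower, and rims2 was higher while rims3 and rims4 were lower. Of 12 tested calcium sensor genes, 3 were higher and 4 lower, to be read beside the same shares. Hpcal1 had 55.3, 62.9 and 68.2 CPM in spinal cord, against 6.50, 10.97 and 14.5 CPM in cerebellum (log2 fold change 2.58 ± 0.14). Its relative vsnl1 went the other way and had 29.2, 34.9 and 40.1 CPM in spinal cord, against 106, 127 and 182 CPM in cerebellum (log2 fold change -2.001 ± 0.10).

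Ion channel genes differed by family. Of 17 voltage-gated calcium channel genes tested, 2 were higher in spinal cord and 6 lower, and the summed level of the list was 364 to 451 CPM in spinal cord libraries, against 867 to 1006 CPM in cerebellum libraries. Cacna1a, the pore of the P/Q-type channel of Purkinje and granule cell terminals, had 25.2, 32.97 and 39.6 CPM in spinal cord, against 216, 253 and 298 CPM in cerebellum (log2 fold change -2.95 ± 0.09, adjusted p = 3.61e-12). The beta subunit gene cacnb3 had 9.49, 10.9 and 15.1 CPM in spinal cord, against 139.7, 148 and 202 CPM in cerebellum (log2 fold change -3.80 ± 0.09). Cacnb2 had 5.86, 6.23 and 8.12 CPM in spinal cord, against 39.9, 60.2 and 70.6 CPM in cerebellum (log2 fold change -3.14 ± 0.11). Of 5 genes of the sodium channel list, scn4b was higher, at 69.8, 79.9 and 89.02 CPM in spinal cord, against 16.5, 25.9 and 28.8 CPM in cerebellum (log2 fold change 1.74 ± 0.11), while scn3b and fgf13 were lower. Fgf13, whose product binds the inner face of sodium channels, had 15.6, 20.1 and 25.4 CPM in spinal cord, against 122, 150.1 and 185 CPM in cerebellum (log2 fold change -2.91 ± 0.10).

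Voltage-gated potassium channel genes were called higher in spinal cord for 9 of 21 and lower for 4. Kcnq5, an M-current subunit, had 4.73, 6.70 and 11.4 CPM in spinal cord, against 0.621, 1.15 and 2.08 CPM in cerebellum (log2 fold change 2.71 ± 0.26). Kcnf1, a silent subunit, had 9.98, 13.9 and 23.4 CPM in spinal cord, against 3.39, 4.16 and 6.25 CPM in cerebellum (log2 fold change 1.73 ± 0.19). The A-type channel gene kcnd2, found in granule cells of mammals, was lower at 2.05, 2.99 and 4.06 CPM in spinal cord, against 6.46, 9.66 and 13.3 CPM in cerebellum (log2 fold change -1.70 ± 0.20). On log2(TPM + 1), 4 members of this list were called higher in place of 9. Of 18 genes for two-pore, inward rectifier and calcium-activated channels, 6 were higher and 4 lower. The shares among tested genes with a symbol were 21.1% and 16.9%. The beta subunit gene kcnmb4 had 32.9, 41.1 and 58.2 CPM in spinal cord, against 2.88, 5.22 and 7.96 CPM in cerebellum (log2 fold change 3.12 ± 0.14). The leak channel gene kcnk9 had 17.3, 19.1 and 23.7 CPM in spinal cord, against 1.48, 2.28 and 2.97 CPM in cerebellum (log2 fold change 3.19 ± 0.17).

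Of 22 HCN, TRP, Piezo, TMC, ASIC and ATP-gated channel genes tested, 11 were higher in spinal cord, 2 lower and 9 not called. Trpc7 had 16.1, 19.5 and 23.6 CPM in spinal cord, against 0, 0.274 and 0.891 CPM in cerebellum (log2 fold change 5.92 ± 0.55). Trpm2 had 16.3, 29.2 and 48.7 CPM in spinal cord, against 0.985, 2.75 and 3.78 CPM in cerebellum (log2 fold change 3.54 ± 0.26). Tmc3 had 9.47, 10.9 and 20.9 CPM in spinal cord, against 0.0657, 0.240 and 0.703 CPM in cerebellum (log2 fold change 5.39 ± 0.34). All 3 were below 4 CPM in every cerebellum library. Asic4 was lower, at 0.983, 3.34 and 4.29 CPM in spinal cord, against 17.3, 20.4 and 24.2 CPM in cerebellum (log2 fold change -2.93 ± 0.30). The touch channel gene piezo2 was low in both tissues, at 5.72, 6.68 and 8.20 CPM in spinal cord, against 3.83, 4.60 and 6.87 CPM in cerebellum (adjusted p = 0.0693). On log2(TPM + 1), 7 list members were called higher in place of 11. Among connexins, 3 of 4 tested genes were higher in spinal cord. Gjd2, the connexin of electrical synapses between neurons, overlapped, at 15.7, 17.7 and 18.5 CPM in spinal cord, against 13.02, 16.98 and 19.1 CPM in cerebellum (adjusted p = 0.586).

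Genes of motile cilia were higher as a group. Of 68 tested, 54 were higher in spinal cord, 2 lower and 12 not called, with a median log2 fold change of 3.11, while that of all tested genes was -0.0013. The gene foxj1, the master regulator of motile cilia, had 29.6, 47.8 and 93.4 CPM in spinal cord, against 0.275, 0.611 and 1.55 CPM in cerebellum (log2 fold change 6.16 ± 0.31, adjusted p = 1.43e-08). Structural and docking genes were higher too. Cfap161 had 10.4, 12.3 and 16.97 CPM in spinal cord, against 0, 0.320 and 0.371 CPM in cerebellum (log2 fold change 5.63 ± 0.33). Drc1, part of the regulatory complex between axonemal dynein arms, had 2.72, 6.21 and 7.47 CPM in spinal cord, against 0, 0.0371 and 0.275 CPM in cerebellum (log2 fold change 5.96 ± 0.57). The summed level of the list was 1018 to 1269 CPM in spinal cord libraries, against 418 to 482 CPM in cerebellum libraries, so the sums did not overlap. The uncalled member with the highest level, cfap36, had 68.3, 75.3 and 104 CPM in spinal cord, against 90.8, 115 and 156 CPM in cerebellum (log2 fold change -0.59 ± 0.09).

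Myelin and oligodendrocyte genes were higher too. Of 26 tested, 20 were higher in spinal cord, 1 lower and 5 not called, with a median of 2.20. Fa2h, which makes the hydroxylated fatty acids of myelin lipids, had 201, 333 and 463 CPM in spinal cord, against 12.8, 16.3 and 22.3 CPM in cerebellum (log2 fold change 4.27 ± 0.14, adjusted p = 2.51e-11). Bcas1, a gene of maturing oligodendrocytes in mammals, had 513, 525 and 614 CPM in spinal cord, against 19.5, 34.4 and 49.1 CPM in cerebellum (log2 fold change 3.95 ± 0.16). The list sum was 8023 to 10519.7 CPM in spinal cord libraries, against 1851 to 2325 CPM in cerebellum libraries. A large part of the spinal cord sum was mpz, at 2542 to 4676 CPM there, against 129.6 to 233 CPM in cerebellum. Olig3, which had 438 counts in spinal cord and 1 in cerebellum, is known as a factor of dorsal neural progenitors rather than of oligodendrocytes. Prx and ncmap, genes of Schwann cells in mammals, had too few counts to test. Of the 6 tested genes of the peripheral myelin list, pmp22 and foxd3 were higher, tfap2a was lower and 3 were not called. The part of Schwann cells in these levels was not tested.

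Cholesterol synthesis, on which myelin depends, was called higher for 7 of 19 genes and lower for 2. Among tested genes with a symbol, 21.1% were higher and 16.9% lower. Fdft1, which makes squalene, had 69.9, 95.1 and 109 CPM in spinal cord, against 20.6, 29.8 and 42.8 CPM in cerebellum (log2 fold change 1.60 ± 0.17). All 5 axonal and glial intermediate filament genes were higher. The neurofilament gene nefl had 117, 274 and 454 CPM in spinal cord, against 1.45, 3.48 and 7.79 CPM in cerebellum (log2 fold change 6.20 ± 0.15, adjusted p = 3.49e-13). Nefh had 656, 1068 and 1199 CPM in spinal cord, against 101, 138 and 175 CPM in cerebellum (log2 fold change 2.89 ± 0.12). Peripherin (prph) had 30.8, 32.3 and 43.1 CPM in spinal cord, against 0, 0.155 and 0.234 CPM in cerebellum (log2 fold change 7.98 ± 0.27). Neurofilaments fill thick axons. Nefl and nefh varied widely among spinal cord libraries without overlapping those of cerebellum.

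Astroglia and radial glia genes were higher in spinal cord for 6 of 13 and lower for 3. S100b had 3046, 3335 and 4352 CPM in spinal cord, against 414, 529 and 714 CPM in cerebellum (log2 fold change 2.72 ± 0.10, adjusted p = 1.22e-11). The potassium channel gene kcnj10 had 554, 728 and 931 CPM in spinal cord, against 121, 136 and 182 CPM in cerebellum (log2 fold change 2.37 ± 0.10). Hepacam had 366, 407 and 446 CPM in spinal cord, against 47.3, 58.03 and 82.3 CPM in cerebellum (log2 fold change 2.76 ± 0.11). The radial glia gene fabp7 stayed just under the 2-fold threshold, at 2518, 2692 and 3618 CPM in spinal cord, against 1159, 1398 and 1856 CPM in cerebellum (log2 fold change 0.99 ± 0.12). By deposited TPM, fabp7 and s100b were among the most abundant genes with a symbol in spinal cord, at 8156 ± 1227 and 6404 ± 808 (mean ± SD, n = 6). Lower in spinal cord were hepacam2, fgfr3 and aqp4.

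**Figure D4:**
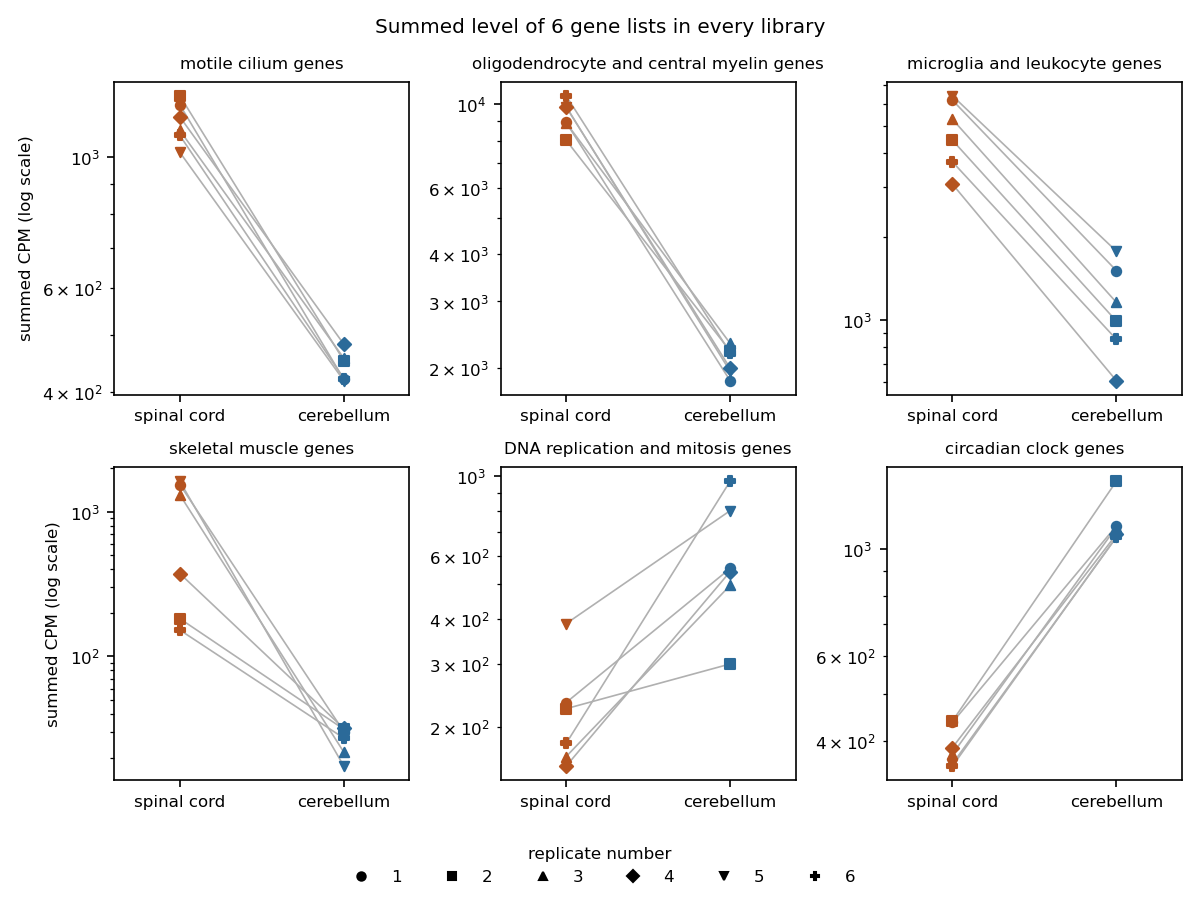
Summed CPM of 6 gene lists in every library (y axis, log scale), with spinal cord on the left and cerebellum on the right of each panel; lines join libraries with the same replicate number. Spinal cord is above cerebellum in all 6 pairs for the cilium, myelin, microglia and muscle lists and below it in all 6 pairs for the DNA replication and clock lists. Most of the microglia sum is cd74 in every library.

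Genes of DNA replication and mitosis were lower in spinal cord. Of 34 tested, none was higher, 27 were lower and 7 not called, with a median of -1.85. Among tested genes with a symbol, 16.9% were lower. The list sum was 155 to 388 CPM in spinal cord libraries, against 299 to 968 CPM in cerebellum libraries, so the sums overlapped between the tissues. Cyclin B1 (ccnb1) had 0, 1.36 and 3.50 CPM in spinal cord, against 4.03, 11.8 and 27.9 CPM in cerebellum (log2 fold change -2.93 ± 0.42, adjusted p = 6.07e-05). Ndc80, a kinetochore gene, had 0.568, 1.91 and 3.15 CPM in spinal cord, against 6.87, 10.6 and 19.5 CPM in cerebellum (log2 fold change -2.67 ± 0.27, adjusted p = 5.48e-07). The proliferation gene mki67 had 0.0811, 5.83 and 17.3 CPM in spinal cord, against 11.2, 36.6 and 86.4 CPM in cerebellum (log2 fold change -2.87 ± 0.72, adjusted p = 0.0122), with overlap. Without numbers 1, 3 and 5, its adjusted p was 0.13. Tyms, which makes thymidine for DNA, had 25.99, 43.7 and 58.02 CPM in spinal cord, against 26.5, 42.5 and 49.96 CPM in cerebellum (adjusted p = 0.536). Libraries did not overlap for 7 of the 34 genes, while 53.3% of all tested genes did not overlap.

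Immature neuron genes went both ways, with 5 of 13 higher in spinal cord and 4 lower. The growth cone gene gap43 had 387, 444 and 472 CPM in spinal cord, against 74.3, 95.2 and 113 CPM in cerebellum (log2 fold change 2.19 ± 0.10). The neuronal tubulin gene tubb3 had 273, 344 and 434 CPM in spinal cord, against 21.4, 29.3 and 37.6 CPM in cerebellum (log2 fold change 3.56 ± 0.12). Sox11, a factor of newborn neurons, was lower, at 49.7, 57.4 and 67.7 CPM in spinal cord, against 605, 620.4 and 679 CPM in cerebellum (log2 fold change -3.46 ± 0.09, adjusted p = 5.24e-13). No library of spinal cord came near those of cerebellum for sox11.

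Of 44 tested axon guidance genes, 14 were higher in spinal cord, 10 lower and 20 not called. Among tested genes with a symbol, 21.1% were higher and 16.9% lower. Plxnb1, a semaphorin receptor, had 84.9, 113 and 152 CPM in spinal cord, against 10.1, 12.8 and 15.4 CPM in cerebellum (log2 fold change 3.15 ± 0.10). Sema3c had 45.8, 55.5 and 77.7 CPM in spinal cord, against 5.20, 6.95 and 9.34 CPM in cerebellum (log2 fold change 2.99 ± 0.14). Ntng2, a membrane-bound netrin, was lower, at 6.70, 11.2 and 15.9 CPM in spinal cord, against 92.97, 120.2 and 142 CPM in cerebellum (log2 fold change -3.47 ± 0.14). On the TPM scale with either pseudocount, 9 were called higher in place of 14. Of 12 cadherin and protocadherin genes, 3 were higher and 2 lower, close to these shares. Pcdh15 had 34.4, 39.2 and 48.95 CPM in spinal cord, against 5.62, 6.83 and 10.3 CPM in cerebellum (log2 fold change 2.43 ± 0.16). Pcdh18 had 39.7, 44.7 and 51.9 CPM in spinal cord, against 134, 178 and 209 CPM in cerebellum (log2 fold change -1.95 ± 0.09).

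Clock and activity genes were lower in spinal cord where they were called in the clock list, and mixed in the activity list. Of 10 circadian clock genes, 4 were lower and none higher, where 16.9% and 21.1% of tested genes with a symbol were. Per1, a repressor of the clock, had 21.1, 27.7 and 34.5 CPM in spinal cord, against 76.6, 96.6 and 117 CPM in cerebellum (log2 fold change -1.82 ± 0.12). Cry2 had 22.2, 27.8 and 45.5 CPM in spinal cord, against 82.4, 104 and 131 CPM in cerebellum (log2 fold change -1.80 ± 0.09). Bhlhe41 had 60.8, 69.8 and 87.8 CPM in spinal cord, against 433, 482 and 536 CPM in cerebellum (log2 fold change -2.75 ± 0.10, adjusted p = 1.46e-11). Of 16 immediate early genes, which neurons switch on with activity or injury, 5 were higher and 7 lower. Egr1 had 37.001, 68.6 and 99.3 CPM in spinal cord, against 160.1, 328 and 591 CPM in cerebellum (log2 fold change -2.32 ± 0.14). Jund had 73.8, 93.7 and 114 CPM in spinal cord, against 380.1, 424 and 497 CPM in cerebellum (log2 fold change -2.20 ± 0.08). Nr4a3 had 12.3, 18.9 and 26.2 CPM in spinal cord, against 0, 1.26 and 2.65 CPM in cerebellum (log2 fold change 4.02 ± 0.35). Nr4a3 was higher in spinal cord, against the direction of egr1 and jund. On log2(TPM + 1), 2 of these genes were called higher in place of 5.

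Other cells that a dissected cord can carry were followed by their own markers, and their part in the results above was not tested. All 6 tested microglia and leukocyte genes were higher in spinal cord, with list sums of 3085 to 6401 CPM in spinal cord libraries, against 608 to 1771 CPM in cerebellum libraries. Most of each sum was a single gene, cd74. Cd74, the invariant chain of antigen presentation, had 2767, 4299 and 5711 CPM in spinal cord, against 550.2, 980.1 and 1594 CPM in cerebellum (log2 fold change 2.09 ± 0.09, adjusted p = 3.93e-11). Of 15 endothelial and mural cell genes, 12 were higher and none lower, with sums of 465 to 733 CPM in spinal cord, against 267 to 288 CPM in cerebellum. The vascular receptor gene kdr had 24.4, 26.1 and 33.8 CPM in spinal cord, against 5.35, 7.40 and 8.79 CPM in cerebellum (log2 fold change 1.93 ± 0.14). Of 17 fibroblast and meningeal genes, 9 were higher and 1, zic1, was lower. Zic1 is also a granule cell factor, and it made up most of the cerebellum sum of that list. The matrix gene fn1 had 60.8, 96.2 and 122 CPM in spinal cord, against 2.20, 5.04 and 9.60 CPM in cerebellum (log2 fold change 4.19 ± 0.25).

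Skeletal muscle genes were present in spinal cord libraries to a very uneven degree. Of 9 tested, 7 were higher in spinal cord. Their summed level was 1538, 182, 1305, 373, 1620 and 152 CPM in spinal cord libraries 1 to 6, against 17.5 to 31.8 CPM in cerebellum libraries. Alpha skeletal actin (acta1) made up most of it, at 1386, 111, 1162, 306, 1236 and 112 CPM in spinal cord libraries 1 to 6, against 0, 0.322 and 0.937 CPM in cerebellum (log2 fold change 10.62 ± 0.71, adjusted p = 2.26e-05). Libraries 1, 3 and 5 held the most. Without those 3 replicate numbers, 5297 genes were higher and 3667 lower, where all 6 numbers gave 5488 and 3548. On log2(TPM + 1), 3 of the muscle genes were called higher in place of 7, and on log2(TPM + 0.1), 4.

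Of 8 sensory ganglion genes, 6 were higher in spinal cord, 1 lower and 1 not called, with sums of 167 to 329 CPM in spinal cord, against 37.8 to 48.0 CPM in cerebellum. The receptor gene ret, which motor neurons also use, had 37.96, 56.9 and 91.05 CPM in spinal cord, against 0.3903, 1.07 and 3.84 CPM in cerebellum (log2 fold change 5.32 ± 0.27). The ganglion gene prdm12 had too few counts to test, and tac1, drgx and ret, all higher, are expressed within the spinal cord as well. The list of peripheral myelin held 6 tested genes, 2 of them higher and 1 lower. Among tested genes with a symbol the shares were 21.1% and 16.9%. Pmp22 had 20.2, 37.4 and 109 CPM in spinal cord, against 2.75, 4.57 and 6.32 CPM in cerebellum (log2 fold change 3.18 ± 0.33). Erythrocyte genes numbered 3, with 2 higher, and choroid plexus genes 6, with 4 higher and 1 lower. The lower choroid plexus gene was ttr, and klb, slc4a5 and otx2 of that list had too few counts to test. The erythrocyte membrane gene rhag had 34.3, 44.4 and 63.2 CPM in spinal cord, against 4.94, 13.5 and 19.3 CPM in cerebellum (log2 fold change 2.04 ± 0.24). Igfbp2 of the choroid plexus list had 26.7, 34.3 and 42.4 CPM in spinal cord, against 3.39, 5.60 and 8.35 CPM in cerebellum (log2 fold change 2.67 ± 0.17).

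Housekeeping machinery was much closer between the tissues. Of 68 cytosolic ribosomal protein genes, 2 were higher in spinal cord and none lower, with a median of 0.03. The higher gene rpl3l is in mammals a muscle paralogue of rpl3 and had 10.6, 19.4 and 28.2 CPM in spinal cord, against 1.31, 2.16 and 3.57 CPM in cerebellum (log2 fold change 3.02 ± 0.27). The abundant rpl7a had 1335, 1467 and 1889 CPM in spinal cord, against 1606, 1788 and 2005 CPM in cerebellum (adjusted p = 0.0805). Of 52 oxidative phosphorylation genes, 1 was lower, and of 32 proteasome genes, 1 was lower, with medians of -0.0033 and -0.30. Mitochondrial ribosomal protein genes lay on the lower side. Of 70 tested, 9 were lower and none higher, their median was -0.62, and 39 of the 70 had no overlap between tissues, close to the 53.3% of all tested genes. Mrps36 had 24.1, 33.7 and 39.5 CPM in spinal cord, against 64.7, 85.2 and 103 CPM in cerebellum (log2 fold change -1.35 ± 0.09). Mrpl17, which missed the 2-fold threshold, had 58.1, 63.8 and 76.3 CPM in spinal cord, against 105, 127 and 145 CPM in cerebellum (log2 fold change -0.95 ± 0.09). On the TPM scale with either pseudocount, 17 of these genes were called lower in place of 9.

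Among the 10 genes with a symbol and the highest TPM in each tissue, 7 were shared between the tissues. Apolipoprotein C1 (apoc1) led both, at 20523 ± 6474 TPM in spinal cord and 8701 ± 2155 TPM in cerebellum (mean ± SD, n = 6). Its CPM overlapped between the tissues, at 3713, 7908 and 10502 CPM in spinal cord, against 2069.7, 2609 and 3731 CPM in cerebellum (log2 fold change 1.40 ± 0.31, adjusted p = 0.00482). Apoa2, another apolipoprotein gene, separated them, at 11.999, 20.5 and 28.7 CPM in spinal cord, against 1059.5, 1261 and 1539.8 CPM in cerebellum (log2 fold change -6.07 ± 0.15, adjusted p = 1.64e-12). Zbtb18, a transcriptional repressor needed for neuron differentiation in mouse, had 25.5, 29.3 and 36.5 CPM in spinal cord, against 2205, 2548 and 2898 CPM in cerebellum (log2 fold change -6.42 ± 0.11, adjusted p = 1.88e-14). The phosphatase gene inpp5a, which ends inositol trisphosphate signals in Purkinje cells of mammals, had 32.3, 37.2 and 47.2 CPM in spinal cord, against 827, 1087 and 1223 CPM in cerebellum (log2 fold change -4.81 ± 0.11). Lower genes of less specific role were raly and rpp25, both tied to RNA handling, and dusp5, a phosphatase of the ERK pathway. Raly had 5.36, 7.35 and 9.28 CPM in spinal cord, against 195, 242 and 403 CPM in cerebellum (log2 fold change -5.13 ± 0.12). Rpp25 had 2.33, 3.62 and 6.64 CPM in spinal cord, against 159.8, 174 and 192 CPM in cerebellum (log2 fold change -5.55 ± 0.15). Dusp5 had 3.49, 9.20 and 17.1 CPM in spinal cord, against 139, 330.4 and 542 CPM in cerebellum (log2 fold change -5.14 ± 0.35).

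Gene pairs whose symbols differ only by a final a or b can be fish duplicates or older family members that mammals share. Of 175 such pairs with both genes tested, 10 were both higher in spinal cord, 7 both lower, 59 had 1 member called and 93 none. In 6 pairs the calls were opposite. Ppp1r14a was higher (log2 fold change 2.43 ± 0.11) and ppp1r14b lower (log2 fold change -1.97 ± 0.18). Inpp5a was lower and inpp5b higher (log2 fold change 1.60 ± 0.10). Fam84a was lower (log2 fold change -3.33 ± 0.11) and fam84b higher (log2 fold change 1.52 ± 0.22). Ppp2r5a was higher (log2 fold change 1.40 ± 0.15) and ppp2r5b lower (log2 fold change -1.50 ± 0.10). The guidance genes sema3a and sema3b, at log2 fold change -2.39 ± 0.18 and log2 fold change 1.37 ± 0.09, and the vesicle priming genes unc13a and unc13b, at log2 fold change -1.04 ± 0.09 and log2 fold change 2.08 ± 0.33, parted likewise, the a member lower and the b member higher. The call of unc13a ended without number 4 (-0.98) and without numbers 1, 3 and 5 (-0.999).

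A second kind of difference ran across the replicate numbers. The block term was significant for 1454 genes, 7.33% of those tested, at an adjusted p under 0.05 of edgeR's quasi-likelihood test over 5 coefficients. That test does not require a difference in each tissue. Both hoxd10 and uts2b were among these genes with no count in cerebellum. Of these, 585 had a symbol and 869 a locus identifier, 6.24% and 8.31% of each class. The fitted range between the lowest and the highest number had a median of 1.35 on the log2 scale and was at least 2 for 407 genes. The deviations of a gene from its tissue means correlated above 0 between tissues for 1441 of the genes, a description that follows from the choice of genes. Whether a number stands for 1 fish is not stated in the labels. Of the 1454 genes, 745, or 51.2%, were also called between the tissues, near the 45.5% of all tested genes.

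Among genes with a symbol and a mean log2 CPM of 3 or more, the 10 with the smallest p among numbers were named. Their fitted ranges among the numbers were wider than their differences between the tissues. Wide ranges are favoured by this choice of genes. Suds3, part of a histone deacetylase complex, had 53.9, 15.3, 8.40, 54.4, 6.22 and 50.9 CPM in spinal cord libraries 1 to 6 and 61.9, 15.5, 8.86, 59.4, 7.20 and 60.9 CPM in cerebellum libraries 1 to 6 (adjusted p among numbers = 2.24e-07). Numbers 2, 3 and 5 were low in both tissues, and the tissues themselves were alike (adjusted p = 0.153). Dpysl5, a cytoskeletal protein gene of growing axons, had 136, 123, 74.8, 162, 17.8 and 15.1 CPM in spinal cord libraries and 107, 81.1, 44.6, 86.9, 7.80 and 7.34 CPM in cerebellum libraries, low in numbers 5 and 6 (adjusted p among numbers = 2.29e-07). Frrs1l, an AMPA receptor assembly factor in mammals, had 29.2, 31.7, 0.781, 2.35, 21.2 and 29.7 CPM in spinal cord libraries and 76.4, 40.7, 2.04, 4.86, 43.2 and 40.98 CPM in cerebellum libraries, low in numbers 3 and 4 (adjusted p among numbers = 1.57e-06). The low and high numbers thus differed from gene to gene.

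Single numbers stood out for others. Zfp36l2, which destabilizes mRNA, was at 25.5 CPM in spinal cord library 4 and 10.7 CPM in cerebellum library 4, while the remaining libraries had 209 to 263 CPM in spinal cord and 76.8 to 124 CPM in cerebellum (adjusted p among numbers = 2.03e-06). The autophagy gene map1lc3b was high in number 4 alone, at 92.8 CPM in spinal cord and 71.6 CPM in cerebellum, where the other libraries had at most 23.8 CPM in spinal cord and 16.1 CPM in cerebellum (adjusted p among numbers = 2.03e-06). The splicing gene prpf19 was low in number 1 alone, at 14.4 CPM in spinal cord and 21.2 CPM in cerebellum (adjusted p among numbers = 2.94e-06). The remaining genes named by the same rule were cap1, plekhb2, clip1 and rab21, with fitted ranges of 2.08, 3.10, 3.19 and 1.81 on the log2 scale. Number 4 was the farthest from the median of the 6 numbers for 339 of the 1454 genes and number 5 for 333, while number 3 was for 82.

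**Figure D5:**
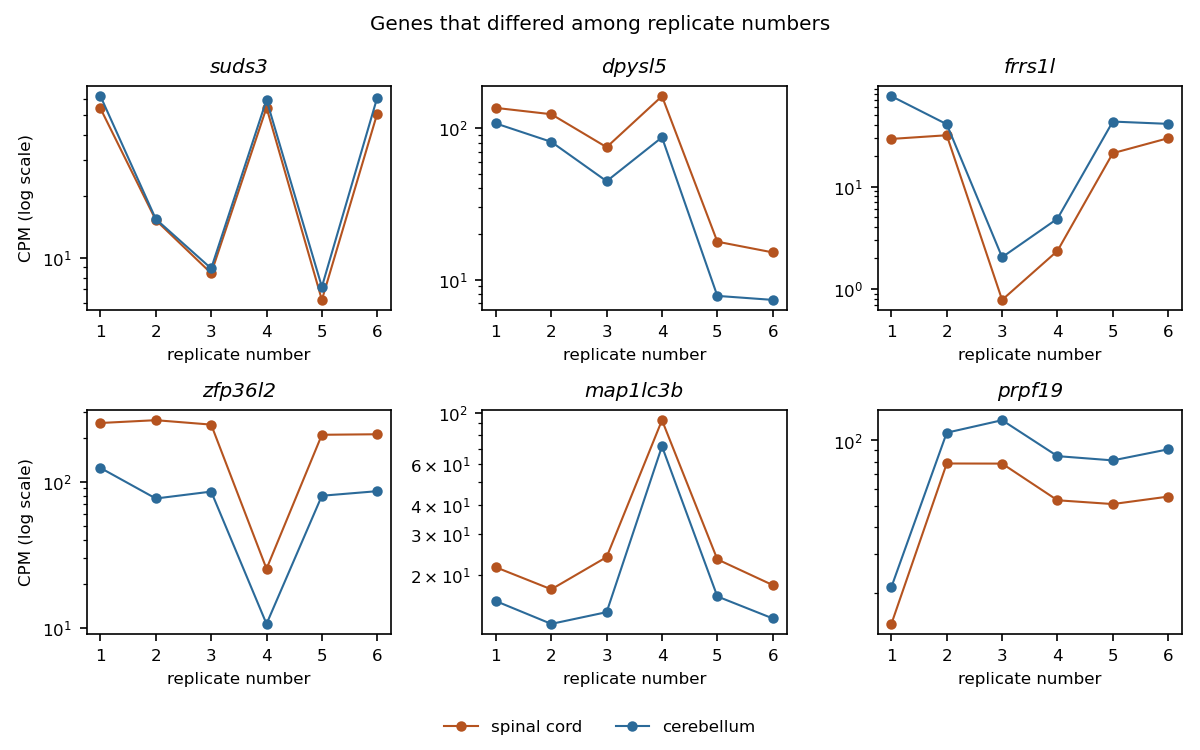
CPM of 6 genes that differed among replicate numbers (y axis, log scale) by replicate number (x axis), with spinal cord libraries and cerebellum libraries as separate lines. Numbers 2, 3 and 5 are low for suds3 in both tissues, numbers 5 and 6 for dpysl5, and number 4 for zfp36l2.

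The share of genes that differed among numbers varied between lists. Of the 6 microglia and leukocyte genes, 5 differed, among them cd74 with 5506, 3910.1, 4689, 2767, 5711 and 3268 CPM in spinal cord libraries 1 to 6 and 1353, 896, 1064, 550.2, 1594 and 779 CPM in cerebellum libraries 1 to 6. Numbers 1, 3 and 5 were the highest for cd74 in both tissues, and they are also the numbers whose spinal cord libraries held the most acta1; the part of one in the other was not tested. Of 10 clock genes, 4 differed, and tef, a clock output factor, had 101, 119.5, 103, 82.5, 47.03 and 67.2 CPM in spinal cord and 211, 389, 222, 174, 124 and 124 CPM in cerebellum, with numbers 5 and 6 lowest in both. Of 16 immediate early genes, 4 differed. None of the 68 motile cilium genes and 1 of the 26 myelin genes differed, where 6.24% of tested genes with a symbol did.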

How the data were processed

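The authors deposited raw gene counts and TPM values for every library in 1 table. Per the submitters' processing notes, CASAVA 1.8.2, Trimmomatic 0.39, STAR 2.7.7a and featureCounts of Subread 2.0.1 were used. The sources used here name no genome build, annotation or strand setting. Overlapping and antisense genes, and near-identical copies, may therefore share reads. Positions and sequences were not used here.

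The deposited counts of 12 libraries were fitted with edgeR 4.0.16 in R 4.3.3 (filterByExpr, TMM, robust quasi-likelihood test), with tissue and replicate number as terms. Genes were called at an adjusted p under 0.05 and a log2 fold change of at least 1 in size. The deposited TPM served for levels compared between genes and for an alternative with limma 3.58.1. DESeq2 1.42.0 was another alternative. The SE of a fold change was derived from its test. The procedure was run on simulated counts in which few genes changed, unlike these data, where 45.5% of tested genes were called. That run does not test the scaling between these tissues. Figures were drawn with matplotlib 3.10.9.

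Same-numbered libraries deviated together from their tissue means, with correlations of 0.223 to 0.423, against -0.222 to 0.0923 for different numbers, so the numbers were taken to pair the libraries. The p-values between tissues rest on how far the spinal cord to cerebellum difference varied over the 6 same-number pairs of these libraries. That spread was moderated towards the spread of other genes. For genes with no count in cerebellum, such as hoxb9, hoxd3 and uts2b, the pairs give no spread of their own. The p-values of such genes rest on the spread taken from other genes. The p-values among numbers are set against the same moderated spread. No 2 libraries agreed within sampling noise, since a chi-square of their counts was at least 11.0 times its degrees of freedom.

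Members and lists were chosen with earlier results of these data known. Genes were named by rule: the 12 highest and 12 lowest abundant genes without overlap, the 10 most abundant by TPM, and fixed markers. Up to 5 called members of each list and its most abundant uncalled member were also named. So were the 10 genes that differed most among numbers, out of those with a symbol and a mean log2 CPM of 3 or more. A gene can stand in more than 1 list. Where a tissue had no count, 3 counts over its 6 libraries set the bound of the fold. Intervals at 95% and such bounds cover counting error only. Some genes chosen in this way are left out of the text.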

Additional observations from a re-analysis of the deposited data

Results flagged for a closer look

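For each gene whose values are given, the 6 libraries of a tissue were searched for 1 library far from the other five, by the gap to the nearest of them relative to the whole range (Dixon's test). Of 318 groups of libraries, 29 held such a library. The nominal rate of about 1 in 20 assumes normally distributed values. The CPM were not log-transformed, some groups had counts in 1 library only, and some genes were picked for uneven values. No excess over that rate can therefore be read from the count. The most of these values in 1 library, 6 each, fell in spinal cord library 1 and cerebellum library 1. Spinal cord library 1 was highest at 183 CPM for hoxd3 (nearest library 159), 2.95 CPM for hoxc11 (nearest library 0.777), 614 CPM for bcas1 (nearest library 537) and 109 CPM for pmp22 (nearest library 52.4). Spinal cord library 3 was highest at 0.293 CPM for hoxb13 (nearest library 0.0876), 0.293 CPM for fat2 (nearest library 0.0893) and 6.64 CPM for rpp25 (nearest library 3.75). Spinal cord library 4 was highest at 0.487 CPM for en2 (nearest library 0.0876), 9.17 CPM for isl1 (nearest library 4.75), 104 CPM for cfap36 (nearest library 79.2) and 92.8 CPM for map1lc3b (nearest library 23.8). Spinal cord library 5 was highest at 15.1 CPM for cacnb3 (nearest library 11.3). Spinal cord library 1 was lowest at 124 CPM for meis1 (nearest library 169) and 656 CPM for nefh (nearest library 1002). Spinal cord library 2 was lowest at 13.03 CPM for grin2a (nearest library 17.3). Spinal cord library 4 was lowest at 25.5 CPM for zfp36l2 (nearest library 209). Spinal cord library 6 alone had counts, at 0.259 CPM for slc6a4. Cerebellum library 1 was highest at 3.35 CPM for unc13b (nearest library 1.30). Cerebellum library 2 was highest at 403 CPM for raly (nearest library 271) and 389 CPM for tef (nearest library 222). Cerebellum library 4 was highest at 71.6 CPM for map1lc3b (nearest library 16.1). Cerebellum library 5 was highest at 247 CPM for fat2 (nearest library 194) and 2.53 CPM for cck (nearest library 0.633). Cerebellum library 1 alone had counts, at 0.131 CPM for hoxb8, 0.0657 CPM for dmrt3, 0.131 CPM for chat, 0.329 CPM for gabrp and 0.0657 CPM for olig3. Cerebellum library 5 alone had counts, at 0.149 CPM for gal. The 5 genes of that kind in cerebellum library 1 were all called higher in spinal cord. That direction follows from how they were picked, with no count in the other cerebellum libraries. Several of these values rest on single counts. For map1lc3b, number 4 was highest in both tissues.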

How the results depend on the processing

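Over all settings tried, higher calls ran from 3909 on log2(TPM + 1) to 6571 with no filter on low counts, and lower calls from 3445 with DESeq2 size factors to 4452 on log2(TPM + 0.1); with no filter they were 4056. Without the replicate block, 5432 genes were higher and 3495 lower, and 8847 of these 8927 calls were shared with the paired fit. Leaving out each replicate number in turn gave 5395 to 5630 higher and 3483 to 3589 lower calls, 6 to 7 opposite symbol pairs, and 868 to 1415 genes that differed among the numbers, with 868 without number 5 and 918 without number 4. That last count was 2713 with DESeq2's likelihood ratio test and 464 without numbers 1, 3 and 5, which leaves 3 numbers. The causes were not tested beyond the smaller number of libraries. Of 2141 log2 fold changes of named genes under other settings, 7 changed sign, all of genes that were not called. Gjd2 stood at -0.10 and -0.11 on the TPM scale with pseudocounts of 1 and 0.1, at -0.019 without numbers 1, 3 and 5, and at -0.017 to 0.14 with each number left out. Tyms stood at -0.11 on the TPM scale with either pseudocount and at -0.0086 to 0.14 with each number left out. Calls of lhx1, fabp7, mrpl17 and frrs1l, all near the 2-fold threshold, appeared under some settings. Depth limits genes with few counts: 1479 genes had no count in these 12 libraries.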

Other observations

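The posterior Hox genes hoxd10 and hoxc11 varied widely between the spinal cord libraries and are named here after their values were seen. Hoxd10, of paralogue group 10, had 23.4, 17.8, 6.84, 2.27, 42.8 and 19.4 CPM in spinal cord libraries 1 to 6 and no count in cerebellum. Hoxc11, of group 11, had 2.95, 0.155, 0, 0.730, 0.175 and 0.777 CPM in spinal cord libraries 1 to 6 and no count in cerebellum. Hoxb9 ran only from 139 to 205 CPM over the same spinal cord libraries. The level of the cord from which each piece was taken is not given in the labels, and its part in these values was not tested.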
